A study of Mus musculus with 66 samples.

Results

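The first 3 days after birth were examined in the cerebellum of 2 inbred mouse strains, C57BL/6J (B6) and DBA/2J (D2), by comparing the arrays labelled P3 (postnatal day 3) with those labelled P0 (the day of birth). The comparison took every array of those labels: 3 B6 and 3 D2 arrays at P0 and 3 B6 and 3 D2 arrays at P3, 12 of the 66 arrays in the series. The other arrays cover daily ages from embryonic day 12 and later postnatal ages up to P9, and the 6 arrays at P6 are used below to set the first 3 days against the next 3. Total RNA came from whole cerebellum, was labelled with biotin and was hybridised to Illumina bead arrays. All groups were untreated as far as the labels say, and the labels give no genotype beyond the strain. The labels call the replicates biological, but give neither the sex of the mice nor the number of cerebella in a sample, so a p-value here measures the spread between these samples only. Whole cerebellum mixes every cell type of the organ and what adheres to it, so that fewer cells of a type and less RNA per cell cannot be told apart.

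At birth the mouse cerebellum is still being built. Granule cell progenitors divide in the external granular layer under the meninges, driven by Sonic hedgehog (SHH), a protein that Purkinje cells release and that signals through the receptor PTCH1, the transducer SMO and the GLI transcription factors to cyclin genes. Neurons of the cerebellar nuclei and Purkinje cells were born before birth and are settling and growing axons and dendrites. Bergmann glia, the radial astrocytes of the cortex, and oligodendrocytes, which make myelin, mature in the same weeks, while blood vessels, microglia and the meninges grow with the tissue.

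Signals were joined between the strain tables by quantile normalisation, and values below are log2 signals or differences between them. A gene stands for its brightest detected probe, and it was called when the adjusted p of a limma fit over all 66 arrays was below 0.05. Between P0 and P3, 1556 of 19134 genes were called higher, 8.13% of those tested, and 2016 were called lower, 10.5%. The median change over all genes was 0.0032. Large changes were almost all rises: 95 probes called higher changed at least 2-fold, against 4 probes called lower. In B6 alone 4.82% of genes were called higher and 3.75% lower, and in D2 alone 2.9% higher and 4.63% lower. The balance in B6 depended on scaling: 1122 probes were higher and 954 lower after quantile normalisation, and 1055 and 563 after scaling arrays to the same median. Of the 3572 genes called, 3549 had the same sign of change in both strains. The call was made on the mean of the same strain changes, which favours such agreement.

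The arrays of the compared ages lay on different chips, and this bears on every value below. P0 and P3 shared 0 chips, and 1 array series (chips whose numbers begin alike), with 4 P0 arrays and 2 P3 arrays, held both ages. The strains shared chips within an age: all P3 arrays lay on 2 chips that each held both strains. The third P0 arrays of both strains also lay on the same chip. Agreement between the strains, in sign or in ages that do not overlap, is therefore not independent of chip. The third P0 array of each strain lay on a chip of another series and stood apart: its Pearson correlation with the other P0 arrays of its strain was 0.968 to 0.969 in B6 and 0.971 to 0.972 in D2, and it reached 0.986 with a P3 array in each strain, while the other pair of P0 arrays correlated at 0.994. Without both of these arrays 5402 genes were called, of which 3242 were among the 3572. Within the shared array series the change had the same sign for 3567 of the 3572, although these arrays are also part of the fit. With the array series fitted as a block (the series block) 2679 kept their call. With the chip fitted as a block (the chip block), which links the ages only through arrays of other ages, 629 did. Probes for 18S ribosomal RNA, a sign of the make-up of the labelled RNA, differed with age too: the 3 probes changed by 1.71, 1.52 and 1.13 (adjusted p = 0.0184, 0.0133 and 0.00599), and on the first 2 of them the third P0 array was the highest P0 array of its strain. The part of the labelled RNA's make-up in the results was not tested. Cerebellar markers lay above the array median of 6.44: at P0 the mean of *Zic1*, a transcription factor of the granule lineage, was 13.25 in B6 and 12.99 in D2, and that of *Pcp2*, a Purkinje cell gene, 9.76 and 9.47.

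**Figure D1:**
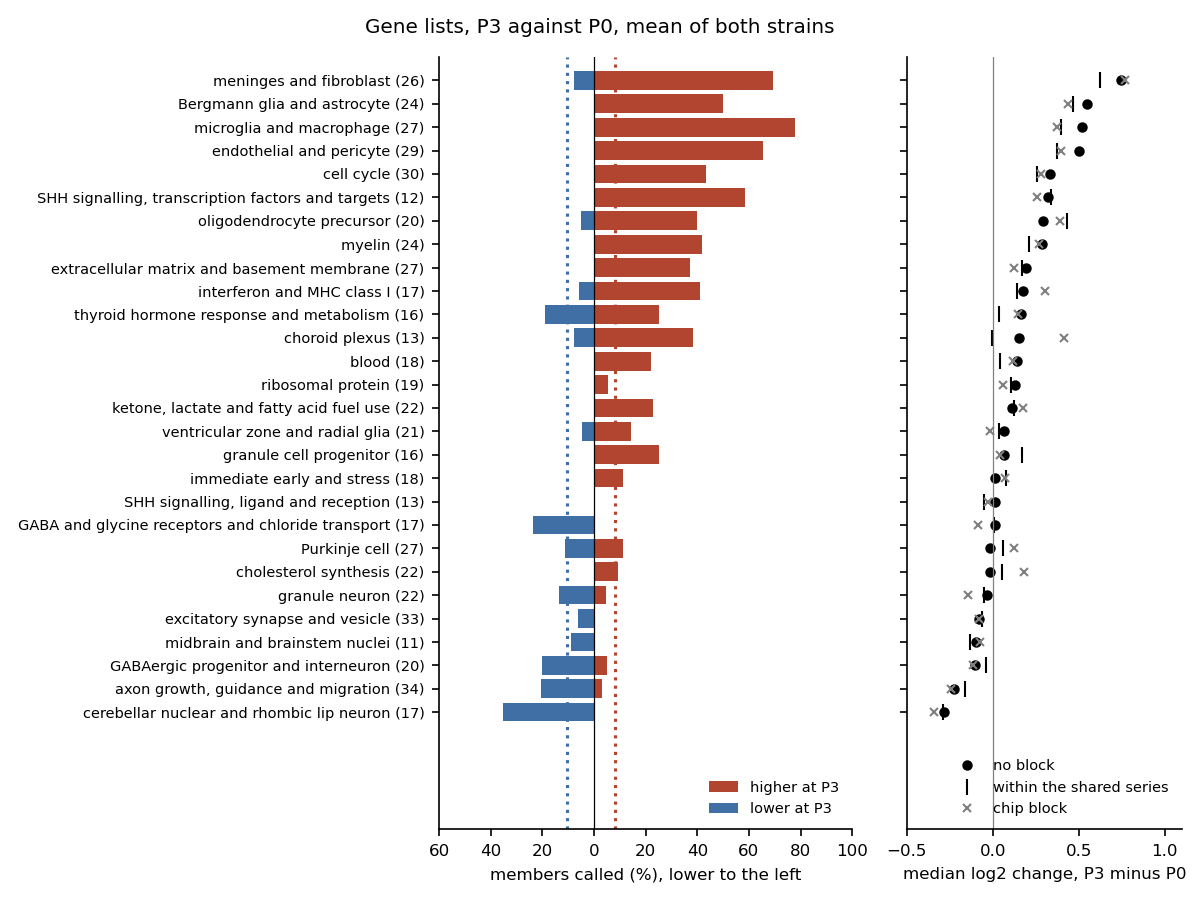
Share of each gene list called at P3 against P0 (left, %, lower to the left; number of members measured in brackets) and median log2 change of the list (right; circles, no block; bars, within the array series shared by both ages; crosses, chip as a block). Lists with at least 10 measured members are drawn, and dotted lines mark the shares over all genes, 8.13% higher and 10.5% lower. Lists of meningeal, vascular, microglial and glial genes lie at the top, and lists of nuclear neurons and axon growth at the bottom.

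The largest rises belonged to genes of the choroid plexus, the meninges, vessel walls, myelin and astrocytes. *Ttr*, the thyroid hormone carrier that choroid plexus epithelium secretes, led with a change of 3.82 (SE 0.54, adjusted p = 9.78e-07), a 14.1-fold difference. Its log2 signal in B6 was 6.99, 7.33 and 7.10 at P0 and 10.45, 11.85 and 10.42 at P3, and in D2 it was 7.49, 12.25 and 8.26 at P0 and 13.57, 13.42 and 12.63 at P3. The second D2 array at P0 was far above the other P0 arrays of both strains, yet the age groups did not overlap in either strain. The same array was also high for *Dcn*, decorin, a proteoglycan of fibroblasts: D2 values were 9.63, 11.18 and 9.42 at P0 and 11.55, 11.62 and 11.60 at P3, and B6 values were 7.23, 7.44 and 7.45 and 11.08, 11.04 and 11.21. Without that array the changes were 4.55 for *Ttr* and 2.90 for *Dcn*, against 3.82 and 2.62 with it.

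*Acta2*, smooth muscle actin, separated the ages more evenly. B6 signals of 6.29, 6.37 and 6.40 at P0 became 8.73, 8.69 and 8.25 at P3, and D2 signals of 6.46, 7.55 and 6.71 became 9.16, 9.0 and 8.55, a change of 2.10 (SE 0.13, adjusted p = 1.05e-15). *Otx1*, a homeobox transcription factor, was the only regulator of transcription among the 12 largest rises. Its B6 values were 7.0, 6.92 and 6.78 at P0 and 9.08, 9.23 and 9.17 at P3, its D2 values 6.80, 7.04 and 7.03 and 9.43, 9.20 and 8.81, and the change of 2.23 (SE 0.22, adjusted p = 1.25e-10) was alike in size between the strains, at 2.26 in B6 and 2.19 in D2. The other large rises were *Cldn11*, a tight junction protein of myelin and of the meninges, at 2.68 (adjusted p = 6.17e-09); *Mbp*, myelin basic protein, at 2.07 (adjusted p = 4.04e-05); and *Slc6a13*, a transporter of GABA and taurine in the meninges, at 2.06 (adjusted p = 3.15e-15). *Slc38a5*, a glutamine transporter, rose by 1.84, *Spp1*, the secreted phosphoprotein osteopontin, by 1.81, *Gjb6*, the astrocyte gap junction protein connexin 30, by 1.78, *Gfap*, the intermediate filament of astrocytes, by 1.68, and *Gpr37l1*, a receptor of astroglia, by 1.67. Every one of these 12 had all P3 arrays above all P0 arrays in both strains, which is the rule they were named by, and all 12 kept their call under the series block, under the chip block and without the P0 arrays that stood apart.

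**Figure D2:**
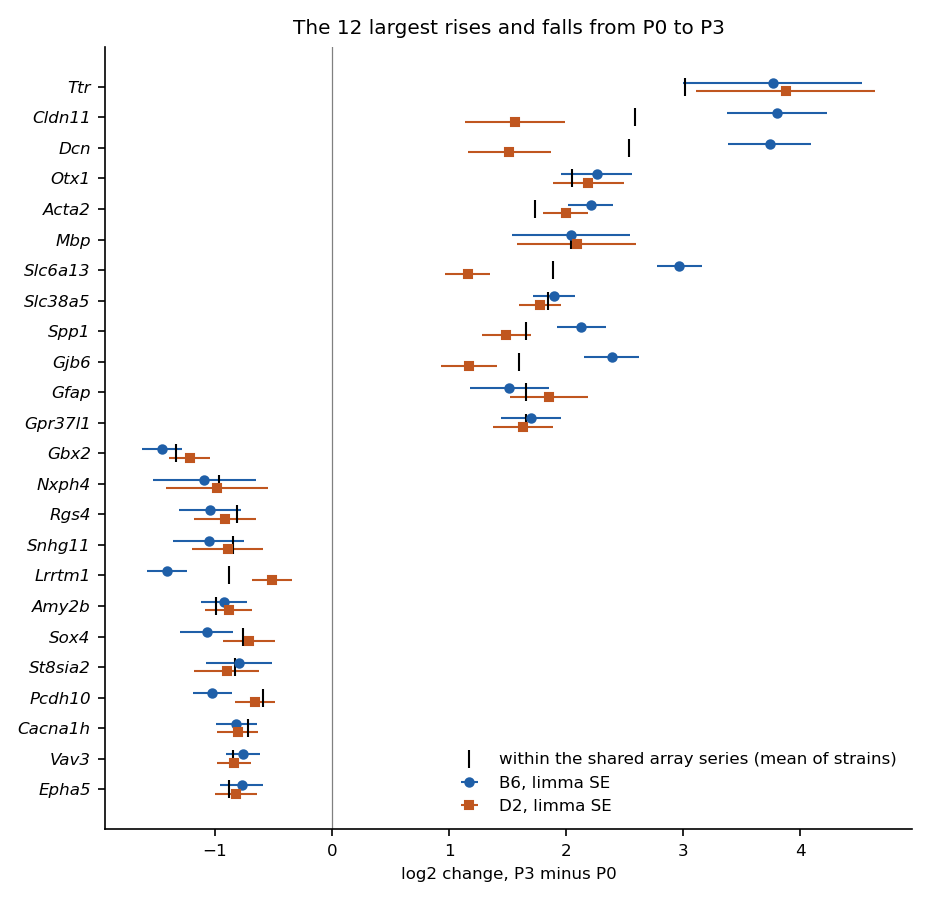
log2 change from P0 to P3 of the 12 genes with the largest rises and the 12 with the largest falls, in B6 (circles) and D2 (squares), with limma standard errors (n = 3 arrays per age and strain). Black bars mark the mean of the strains within the array series that holds both ages. *Cldn11*, *Dcn*, *Slc6a13* and *Gjb6* lie further right in B6 than in D2.

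The falls were smaller than these rises. *Gbx2*, a homeobox gene that sets the boundary between midbrain and hindbrain in the embryo, fell most. In B6 it read 10.44, 10.34 and 10.27 at P0 and 9.07, 8.74 and 8.89 at P3, and in D2 10.11, 9.48 and 10.18 and 8.63, 8.87 and 8.62, a change of -1.33 (SE 0.12, adjusted p = 3.24e-11). *Sox4*, a transcription factor of immature neurons, changed by -0.89 (adjusted p = 6.26e-05), and *St8sia2*, the enzyme that adds polysialic acid to the adhesion molecule NCAM, by -0.85 (adjusted p = 0.00168). *Epha5*, a receptor for ephrins in axon guidance, changed by -0.79 (adjusted p = 1.3e-05), *Pcdh10*, a protocadherin, by -0.84 (adjusted p = 8.65e-07), and *Lrrtm1*, a synaptic adhesion protein, by -0.96 (adjusted p = 9.5e-08). Genes of signalling fell as well: *Rgs4*, a regulator of G protein signalling, at -0.98, *Cacna1h*, a T-type calcium channel, at -0.81, and *Vav3*, a guanine nucleotide exchange factor, at -0.80. *Nxph4*, a secreted neurexin ligand, fell by 1.03 (adjusted p = 0.0147), but under the series block its adjusted p was 0.236. *Snhg11*, a long noncoding RNA, fell by 0.97, and its value under the chip block was -0.12. The probe named *Amy2b*, an amylase gene, fell by 0.90, but near-identical amylase genes may share it. Under the chip block 8 of these 12 falls kept their call, and the exceptions were *Cacna1h*, *Rgs4*, *Snhg11* and *St8sia2*.

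Several genes of the cell cycle were higher at P3, by less than 2-fold. Of 30 measured members, 13 were called higher (43.3%, beside 8.13% of all genes) and 0 lower, and their median change was 0.33. The mean log2 signal over the list ran from 8.97 to 9.06 on the B6 arrays at P0 and from 9.38 to 9.46 at P3, and in D2 from 9.01 to 9.08 and from 9.27 to 9.39, so that the ages did not overlap in either strain. *Birc5*, survivin, which acts at the centromere in mitosis, read 9.65, 10.02 and 9.97 in B6 and 9.63, 9.81 and 10.27 in D2 at P0, and 10.67, 10.82 and 10.14 and 10.84, 10.36 and 10.20 at P3, a change of 0.61 (SE 0.13, adjusted p = 4.48e-04) in which the ages overlapped in D2 and not in B6. *Ccnb1*, the mitotic cyclin B1, rose by 0.62 (adjusted p = 0.00334) with no overlap in either strain. *Tyms*, thymidylate synthase, which makes a DNA precursor, rose by 0.57 (adjusted p = 1.21e-04), and *Pcna*, the sliding clamp of DNA polymerase, by 0.79 (adjusted p = 0.0365). The value of *Pcna* was 0.034 under the chip block. Proliferation markers that missed the threshold had positive values all the same, 0.33 (adjusted p = 0.0947) for *Mki67*, 0.11 (adjusted p = 0.614) for *Top2a* and 0.34 (adjusted p = 0.064) for the mitotic kinase *Cdk1*. Under the series block 9 members were called higher and 1 lower, and under the chip block 5 and 0.

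Many mitotic genes carry 2 promoter elements, the CCAAT box, bound by the factor NF-Y, and the cell cycle homology region (CHR), bound by complexes that repress these genes outside the dividing state. The promoters of the called cell cycle genes were therefore searched on both strands for CCAAT, for the CHR letters TTTGAA and for the E2F site GGCGGGAA, over 250 bases before and 50 after each start in the RefSeq promoter table (build GRCm38.p6). The 5 that follow are called members that hold a motif, those with the most kinds of motif first and then those with the largest change. Capitals mark each CCAAT (or ATTGG on the opposite strand) and each TTTGAA, which overlap in *Cdca8*, a partner of survivin. *Plk1* and *Aurka* encode mitotic kinases.
*Cdca8*, chr4:124936868-124937167, minus strand: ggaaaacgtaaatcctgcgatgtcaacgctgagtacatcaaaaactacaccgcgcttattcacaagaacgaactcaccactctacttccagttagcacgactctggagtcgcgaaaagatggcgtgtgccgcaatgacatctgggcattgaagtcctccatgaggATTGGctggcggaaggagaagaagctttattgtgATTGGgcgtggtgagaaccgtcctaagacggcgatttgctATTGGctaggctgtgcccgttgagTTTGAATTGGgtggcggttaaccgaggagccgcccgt
*Plk1*, chr7:122159185-122159484, plus strand: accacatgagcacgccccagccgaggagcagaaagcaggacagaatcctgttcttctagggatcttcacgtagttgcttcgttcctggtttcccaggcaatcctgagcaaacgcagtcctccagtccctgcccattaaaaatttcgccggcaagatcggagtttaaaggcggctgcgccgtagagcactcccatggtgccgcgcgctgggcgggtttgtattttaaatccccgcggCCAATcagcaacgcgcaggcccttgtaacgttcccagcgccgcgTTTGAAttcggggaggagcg
*Aurka*, chr2:172370521-172370820, minus strand: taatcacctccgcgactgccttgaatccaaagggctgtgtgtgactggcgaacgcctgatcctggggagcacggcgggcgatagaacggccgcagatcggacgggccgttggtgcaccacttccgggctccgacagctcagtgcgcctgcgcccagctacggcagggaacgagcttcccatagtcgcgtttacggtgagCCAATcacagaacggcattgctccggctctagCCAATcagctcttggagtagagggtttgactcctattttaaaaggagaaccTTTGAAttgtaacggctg
*Pcna*, chr2:132253131-132253430, minus strand: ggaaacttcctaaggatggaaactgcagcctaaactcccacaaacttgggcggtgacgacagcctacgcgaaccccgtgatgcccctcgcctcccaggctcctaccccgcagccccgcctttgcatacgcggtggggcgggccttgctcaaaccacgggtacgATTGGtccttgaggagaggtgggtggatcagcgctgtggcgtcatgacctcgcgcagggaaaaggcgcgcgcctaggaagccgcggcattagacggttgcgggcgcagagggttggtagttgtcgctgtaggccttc
*Ccnb1*, chr13:100786437-100786736, minus strand: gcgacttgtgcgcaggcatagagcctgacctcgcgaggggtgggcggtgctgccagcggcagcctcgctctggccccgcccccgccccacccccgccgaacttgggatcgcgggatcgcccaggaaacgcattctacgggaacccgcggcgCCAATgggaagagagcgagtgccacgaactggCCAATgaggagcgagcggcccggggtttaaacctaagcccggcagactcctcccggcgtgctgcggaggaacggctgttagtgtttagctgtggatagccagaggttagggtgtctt

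*Cdca8* rose by 0.49, *Plk1* by 0.44 and *Aurka* by 0.37 (adjusted p = 0.00952, 0.033 and 0.026). CCAAT stood in 9 of the 13 promoters of called cell cycle genes (69.2%) and TTTGAA in 3 (23.1%), beside 37.4% and 17.9% of all 32841 promoters in the table. Members that were not called held CCAAT in 12 of 13 promoters (92.3%) and TTTGAA in 8 (61.5%). GGCGGGAA was in 0 promoters of called members and in 2.19% of all promoters. The GLI site GACCACCCA was in 0 of 8 promoters of called SHH target genes and in 0.253% of all promoters. These 8 came from 4 of the 7 called genes, and *Ccnd1*, *Ccnd2* and *Sfrp1* had no promoter to search. At so low a share, 8 promoters are too few to show that the site is lacking. *Ccnb1*, *Pcna*, *Cdca8* and *Plk1* were not called under the chip block, and *Pcna*, *Cdca8*, *Plk1* and *Aurka* not under the series block. The promoter matches describe letters in a window and show no binding.

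In the SHH pathway, calls in the fit over all 66 arrays lay on the side of the transcription factors and targets. None of the 13 measured ligand and reception genes was called by limma, and 2 had an unadjusted p below 0.05. The ligand *Shh* had a value of -0.19 (adjusted p = 0.331), with B6 signals of 6.90, 7.31 and 7.50 at P0 and 7.14, 7.29 and 7.05 at P3 and D2 signals of 7.25, 7.36 and 7.08 and 6.87, 7.06 and 6.81, which overlap in B6 and lie next to each other in D2. The receptor *Ptch1*, itself a target of the pathway, had -0.24 (adjusted p = 0.375), the transducer *Smo* 0.41 (adjusted p = 0.115) and the inhibitor *Sufu* 0.019 (adjusted p = 0.959). Of the other *Smo* probes, 1 was called, and it was lower, opposite in sign to the brightest probe. *Smo* was called higher without both P0 replicate 3 arrays, at 0.59 (adjusted p = 0.0214). In that fit *Hhip*, also of this list, was called lower, at -0.27 (adjusted p = 0.031). Of 12 measured transcription factors and targets, 7 were called higher (58.3%, beside 8.13% of all genes) and 0 lower, with a median of 0.32. *Ccnd2*, cyclin D2, which drives progenitors into the cell cycle, read 12.74, 12.52 and 12.32 in B6 at P0 and 13.11, 13.17 and 13.36 at P3, and 12.60, 12.66 and 12.65 and 13.42, 13.17 and 13.39 in D2, a rise of 0.69 (SE 0.11, adjusted p = 1.2e-05). *Ccnd1*, cyclin D1, rose by 0.54 (adjusted p = 0.00124) and *Gli2*, the main activator among the GLI factors, by 0.38 (adjusted p = 0.0258). *Gli2* had an adjusted p of 0.0904 under the series block. Neither *Gli2* nor *Ccnd1* was called under the chip block (adjusted p = 0.257 and 0.187). *Gli3*, mostly a repressor, had 0.10 (adjusted p = 0.473). The largest values of the list were those of *Spp1*, 1.81, and *Igf2*, an imprinted growth factor, 1.60 (adjusted p = 2.31e-10). Macrophages also make *Spp1*, and meninges and choroid plexus make *Igf2*. Genes of these cells rose too, with 21 of 27, 18 of 26 and 5 of 13 members of their lists called higher, and their part in these values was not tested. *Gli1*, *Mycn* and *Cxcr4* had no probe that passed the filter under these names and were not analysed here.

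Genes of the granule lineage were called in both directions. Of 16 measured progenitor genes, 4 were called higher (25%, beside 8.13% of all genes) and 0 lower, with a median of 0.064. The cyclins above were among the 4, with *Sfrp1*, a secreted WNT inhibitor, at 0.84 (adjusted p = 2.75e-04). *Sfrp1* and both cyclins were already counted among the called SHH targets. *Neurod1*, a transcription factor of granule cell differentiation, was the last of the 4, with a change of 0.86 (SE 0.29, adjusted p = 0.0292). Its B6 signals were 8.13, 7.81 and 9.06 at P0 and 9.38, 9.34 and 9.46 at P3. Its D2 signals were 8.41, 8.18 and 8.84 and 9.18, 8.86 and 9.40. The third P0 array was the highest P0 array in both strains, and under the chip block the value was -0.092. *Zic1* had 0.22 (adjusted p = 0.392), *Zic2* -0.56 (adjusted p = 0.104) and *Pax6*, a transcription factor of progenitors and young granule cells, 0.014 (adjusted p = 0.962). Among 22 genes of maturing granule neurons, 1 was called higher (4.55%) and 3 lower (13.6%), shares close to the 8.13% and 10.5% of all genes. Without the second D2 array at P0 the counts were 0 and 1. The receptor subunit *Grin2c* of mature granule cells fell by 0.51 (adjusted p = 0.00456), *Dcx*, doublecortin of migrating neurons, by 0.36 (0.0368) and the adhesion molecule *Nrcam* by 0.27 (0.0458), while the transcription factor *Etv1* rose by 0.47 (0.0484) at its brightest probe and had -0.12 over the median of its probes. *Gabra6*, the receptor subunit that marks mature granule cells, was below the array median in the P0 means, at 5.91 in B6 and 5.99 in D2, and had 0.025 (adjusted p = 0.885). *Atoh1*, which defines the progenitors, was not analysed here. *Neurod1*, *Grin2c*, *Etv1* and *Nrcam* lost their calls under the chip block, *Dcx* and *Nrcam* under the series block, and *Neurod1*, *Etv1*, *Dcx* and *Nrcam* without the second D2 array at P0.

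Purkinje cell genes were called in both directions, at shares close to those over all genes, with 3 of 27 measured members called higher and 3 lower, 11.1% each beside 8.13% and 10.5% of all genes. *Itpr1*, the calcium release channel of its dendrites, read 10.96, 11.06 and 11.13 in B6 at P0 and 12.00, 12.01 and 12.02 at P3, and 11.74, 11.95 and 11.40 and 12.01, 12.49 and 12.42 in D2, a change of 0.78 (SE 0.20, adjusted p = 0.00434). *Calb1*, the calcium buffer calbindin, rose by 0.67 (adjusted p = 0.00974). The members called lower are transcription factors. *Ebf2*, which acts in Purkinje cell subtypes during development, read 9.69, 9.86 and 8.35 in B6 at P0 and 7.72, 7.72 and 8.41 at P3, and 9.72, 9.46 and 8.86 and 7.67, 8.55 and 8.68 in D2, a change of -1.20 (SE 0.21, adjusted p = 5.54e-05). In B6 the third P0 array lay among the P3 arrays, and in D2 the ages did not overlap. *Foxp2* fell by 0.76 (adjusted p = 1.27e-04) and *Bcl11a* by 0.68 (2.08e-04), each with no overlap between ages in either strain. *Pcp2* had 0.61 (adjusted p = 0.0941) and *Pvalb*, the calcium buffer parvalbumin, 0.75 (adjusted p = 0.0517). *Rora*, a nuclear receptor needed for Purkinje cell survival, had -0.71 (adjusted p = 0.0577). Under the chip block 0 Purkinje genes were called higher, with 0.79 for *Itpr1* and 0.24 for *Calb1* (adjusted p = 0.127 and 0.734), and 3 lower.

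Genes of the cerebellar nuclei and the rhombic lip, the germinal zone of the glutamatergic neurons, were called only in the lower direction. Of 17 measured, 6 were called lower (35.3%, beside 10.5% of all genes) and 0 higher, and the list's median was -0.28. The mean signal of the list was 8.48 to 8.60 in B6 at P0 and 8.18 to 8.22 at P3, and 8.44 to 8.48 and 8.12 to 8.25 in D2, without overlap. Beside *Gbx2*, the homeobox factor *En1* fell by 0.63 (adjusted p = 9.24e-04), *Irx3*, another homeobox factor, by 0.60 (0.00277) and *Tbr1*, which marks nuclear neurons, by 0.48 (1.36e-04). *Tbr1* was weak, with B6 signals of 7.39, 7.37 and 7.22 at P0 and 6.82, 6.86 and 6.80 at P3 and D2 signals of 7.20, 7.18 and 7.28 and 6.89, 6.78 and 6.60. In the list of GABAergic progenitors and interneurons 4 of 20 were called lower (20%, beside 10.5% of all genes) and 1 higher (5%). The lower ones included *Gbx2* and the peptides *Cartpt* at -0.81 (adjusted p = 2.9e-04) and *Sst*, somatostatin, at -0.73 (adjusted p = 0.0234). *Ptf1a*, the factor that makes cerebellar progenitors GABAergic, went the other way: B6 signals were 8.83, 9.19 and 9.54 at P0 and 10.06, 10.31 and 9.97 at P3, D2 signals 9.26, 9.32 and 9.43 and 10.20, 10.30 and 9.78, and the rise was 0.84 (SE 0.19, adjusted p = 9.16e-04). In the list of ventricular zone and radial glia 3 of 21 were called higher (14.3%, beside 8.13% of all genes) and 1 lower (4.76%). The higher ones were *Prom1* at 0.55 and the differentiation inhibitors *Id1* at 0.46 and *Id3* at 0.45. The lower one was the Notch ligand *Dll1* at -0.55. The chip block ended the calls of *Irx3*, *Tbr1*, *Cartpt*, *Sst*, *Ptf1a*, *Prom1*, *Id1*, *Id3* and *Dll1*, with -0.037 for *Dll1*, and that of *Sst* was also lost without both P0 replicate 3 arrays.

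Among genes of axon growth, guidance and migration 7 of 34 were called lower (20.6%, beside 10.5% of all genes) and 1 higher (2.94%). Their median was -0.22. Without the second D2 array at P0, 4 of the 34 were called lower, a share nearer the 10.5% of all genes in the main fit. *Efna5*, an ephrin ligand for the *Epha5* receptor, read 11.74, 11.74 and 11.40 in B6 at P0 and 10.88, 10.69 and 10.90 at P3, and 11.62, 11.58 and 11.33 and 10.71, 11.23 and 11.27 in D2, a change of -0.62 (SE 0.11, adjusted p = 2.96e-05). *Dpysl5*, a growth cone protein, fell by 0.55 (adjusted p = 4.91e-04) and *Slit2*, a repellent of axons, by 0.51 (2.7e-04). The member called higher was *Cxcl12*, at 1.17 (adjusted p = 1.56e-07), a chemokine that the meninges release and that holds granule cell progenitors at the surface. Receptors for GABA and glycine had 4 of 17 members called lower (23.5%, beside 10.5% of all genes) and 0 higher. The list's median change was 0.014, so the list as a whole did not move. Among the lower ones were the subunits *Gabra3* at -0.44, *Glra2* at -0.39 and *Gabrb2* at -0.26. Without the second D2 array at P0, 2 of the 17 were called lower, a share also nearer the 10.5%. Among 33 genes of excitatory synapses and vesicles 2 were called lower (6.06%, beside 10.5% of all genes) and 0 higher. *Camk2a*, a synaptic kinase, was among the lower ones, at -0.39. Of the genes named here, *Efna5*, *Dpysl5*, *Slit2*, *Gabra3*, *Gabrb2* and *Camk2a* were not called under the chip block, nor *Gabra3* and *Glra2* under the series block.

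Many glial genes rose. In the list of Bergmann glia and astrocytes 12 of 24 were called higher (50%, beside 8.13% of all genes) and 0 lower. The median was 0.55. *Gfap* read 7.32, 7.62 and 7.32 in B6 at P0 and 8.73, 8.91 and 9.16 at P3, and 7.56, 8.27 and 7.43 and 10.24, 9.04 and 9.54 in D2, a change of 1.68 (SE 0.24, adjusted p = 8.6e-07). *Aqp4*, the water channel of astrocyte endfeet, rose by 1.5 (adjusted p = 4.24e-04) and the homeodomain protein *Hopx* by 1.01 (0.00367). Oligodendrocyte precursor genes had 8 of 20 called higher (40%, beside 8.13% of all genes) and 1 lower (5%). Beside *Gpr37l1*, which this list holds, *Enpp6*, a phosphodiesterase that marks newly forming oligodendrocytes, rose by 1.46 (adjusted p = 1.15e-10), the receptor *Gpr17* of the same stage by 1.12 (7.91e-05) and the matrix protein *Matn4* by 0.92 (1.32e-04). Myelin genes had 10 of 24 called higher (41.7%, beside 8.13% of all genes) and 0 lower. *Mbp* read 8.30, 8.52 and 8.70 in B6 at P0 and 10.48, 10.69 and 10.47 at P3, and 9.0, 9.53 and 8.93 and 11.81, 10.62 and 11.29 in D2, a change of 2.07 (SE 0.36, adjusted p = 4.04e-05). The chaperone *Cryab* rose by 0.96 (adjusted p = 9.34e-06). Under the chip block 8 myelin members and 7 of the astrocyte list were called higher, and *Hopx*, *Gpr17* and *Matn4* lost their calls.

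**Figure D3:**
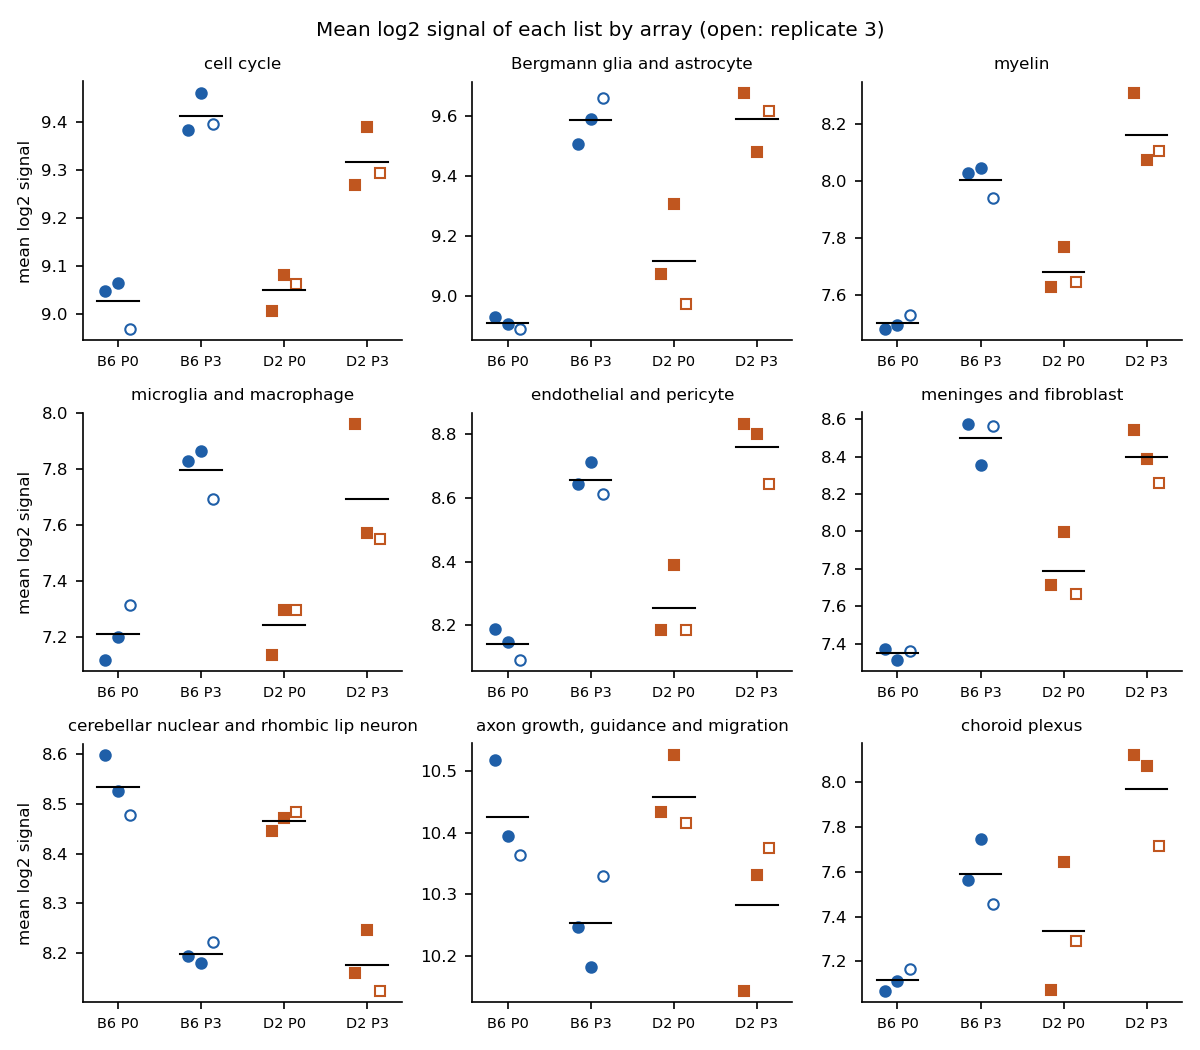
Mean log2 signal over the measured members of 9 gene lists on each of the 12 arrays, by strain and age (circles, B6; squares, D2; open symbols, replicate 3; lines, means of n = 3). The second D2 array at P0 is the highest P0 array of its strain for the meningeal, choroid plexus, vascular, astrocyte and myelin lists. The D2 arrays at P3 lie above it in each of these, while for choroid plexus some B6 arrays at P3 lie below it.

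Genes of vessels and meninges made up 2 of the lists with the largest shares called. Of 29 endothelial and pericyte genes 19 were called higher (65.5%, beside 8.13% of all genes) and 0 lower, and 15 higher under the chip block. *Vtn*, vitronectin, made by pericytes, read 8.38, 8.07 and 8.27 in B6 at P0 and 9.65, 9.81 and 9.78 at P3, and 8.49, 9.06 and 8.43 and 9.98, 9.79 and 9.91 in D2, a change of 1.37 (SE 0.12, adjusted p = 8.39e-12). The endothelial genes *Egfl7*, *Cldn5*, the tight junction protein of the blood-brain barrier, and *Emcn* rose by 1.23, 1.05 and 0.99 (adjusted p = 2.56e-10, 7.87e-06 and 2.46e-07). Of 26 meningeal and fibroblast genes 18 were called higher (69.2%, beside 8.13% of all genes), with a median of 0.75, and 2 lower. The 2 lower members were *Col1a1*, at -0.53 (adjusted p = 3.58e-05), and *Ogn*, at -0.24 (adjusted p = 0.00162), a collagen and a matrix proteoglycan, named after their values were seen. *Col3a1*, a fibrillar collagen, rose by 1.64 (adjusted p = 2.36e-10). *Ptgds*, the prostaglandin D synthase of meninges and choroid plexus, changed by 2.60 (SE 0.40, adjusted p = 4.71e-06), with groups that overlapped in D2. Matrix and basement membrane genes had 10 of 27 members called higher (37%, beside 8.13% of all genes) and 0 lower. The collagens *Col6a1* at 1.09, *Col4a2* at 0.93 and *Col5a1* at 0.77 led them. *Sparc*, a matrix protein, had 0.78 (adjusted p = 0.025) but -0.0053 under the chip block. In the choroid plexus list 5 of 13 were called higher (38.5%, beside 8.13% of all genes), 1 lower (7.69%) and 7 in neither direction. The list's median change was 0.16, with -0.0079 in B6, 0.36 in D2 and -0.0048 within the shared array series. *Enpp2*, the enzyme autotaxin, rose by 1.04, the chloride channel protein *Clic6* by 0.88 and the homeobox factor *Msx1* by 0.92, beside *Ttr*. The choroid plexus is attached to the cerebellum and not part of it, and how much of it and of the meninges each sample held was not measured. *Ptgds*, *Enpp2*, *Sparc*, *Col1a1* and *Ogn* had no call under the chip block.

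Microglia and macrophage genes had the highest share called higher of the 30 lists. Of 27 members 21 were called higher (77.8%, beside 8.13% of all genes) and 0 lower, with a median of 0.52. The mean signal of the list ran from 7.12 to 7.31 in B6 at P0 and from 7.69 to 7.87 at P3, and from 7.13 to 7.29 and 7.55 to 7.96 in D2. The members with the largest rises included genes of macrophages at the borders of the brain. *Pf4*, a chemokine, rose by 1.17 (adjusted p = 3.74e-06), *Mrc1*, the mannose receptor of perivascular and meningeal macrophages, by 1.15 (1.23e-09), and lysozyme *Lyz2* by 0.91 (1.89e-09). *Mrc1* read 6.75, 6.71 and 6.50 in B6 at P0 and 8.06, 8.32 and 8.02 at P3, and 7.57, 8.19 and 6.98 and 8.43, 8.47 and 8.27 in D2. *Fcrls*, a microglial receptor, rose by 0.90 (2.41e-06), and it was not called under the chip block. Under the series block 16 members were called higher and under the chip block 8. Interferon-induced and MHC class I genes had 7 of 17 called higher (41.2%, beside 8.13% of all genes) and 1 lower (5.88%). The higher ones included the membrane proteins *Ifitm3* at 0.92, *Bst2* at 0.78 and *Ifitm1* at 0.72 and the immunoproteasome subunit *Psmb8* at 0.55.

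Of 22 genes for the use of ketones, lactate and fatty acids, the fuels of the suckling brain, 5 were called higher (22.7%, beside 8.13% of all genes) and 0 lower: *Angptl4*, a lipase inhibitor, at 1.09, and *Hadhb* and *Cpt2* of fatty acid oxidation at 0.62 and 0.54 were among them. The thyroid hormone list had 4 of 16 called higher (25%) and 3 lower (18.8%), beside 8.13% and 10.5% of all genes. Its higher members included *Ttr* and *Mbp*, counted above, and *Klf9*, a transcription factor that the hormone induces, at 0.56 (adjusted p = 0.0344). Its lower members were led by the transcription factor *Bcl11b* at -0.63 (adjusted p = 1.17e-05). Of 22 cholesterol synthesis genes 2 were called higher, *Ebp* at 0.46 and *Mvk* at 0.13, and 0 lower, a share of 9.09% that is near the background. Immediate early and stress genes had 2 of 18 higher, *Fos* at 0.48 and *Txnip* at 0.42, the latter at -0.25 under the chip block, and the share of 11.1% is near the background too. Without the second D2 array at P0 each of these lists had 1 member called higher. Of 19 ribosomal protein genes *Rps14* was called, at 0.25, and it had -0.052 under the chip block. Blood genes had 4 of 18 called higher (22.2%, beside 8.13% of all genes) and 0 lower. The higher ones were the neutrophil genes *S100a8* and *S100a9* at 0.73 and 0.61, *Blvrb* at 0.61 and the erythroid factor *Klf1* at 0.27. *Klf1* had 0.084 under the series block and 0.0012 under the chip block (adjusted p = 0.329 and 0.996). For tissue next to the cerebellum, 1 of 6 caudal Hox genes was called lower (16.7%), *Hoxb3* at -0.30. So was 1 of 11 midbrain and brainstem genes (9.09%, beside 10.5% of all genes), *Isl1* at -0.62. Of either list 0 were called higher, and *Hoxb3* had -0.0038 under the chip block. Of the metabolic, blood and regional genes named here, *Hadhb*, *Cpt2*, *Klf9*, *Fos*, *Txnip*, *Rps14*, *S100a8*, *S100a9*, *Blvrb*, *Klf1*, *Hoxb3* and *Isl1* were not called under the chip block.

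Signal for sex-linked genes differed between the arrays of a group and between the groups compared. *Eif2s3y*, a gene of the Y chromosome, read 8.16, 6.11 and 9.07 in B6 at P0 and 6.17, 5.99 and 6.09 at P3. In D2 it read 6.17, 8.42 and 8.73 at P0 and 9.23, 6.15 and 9.47 at P3. It was low on all 3 B6 arrays at P3 and on 1 array of each other group, and high on the rest. *Xist*, the RNA of the inactive X chromosome in females, read 9.46, 9.89 and 9.67 in B6 at P0 and 10.26, 10.31 and 10.79 at P3. Its D2 values were 10.50, 9.54 and 9.75 at P0 and 9.32, 11.30 and 6.54 at P3, the last of them the lowest of all. Several arrays thus had signal for both genes. Limma called 0 of 4 sex-linked genes between the ages and 0 had an unadjusted p below 0.05, which does not show that the groups are alike in sex. The change of *Eif2s3y* was -1.69 in B6 and 0.51 in D2. What part sex has in the other results was not tested.

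The strains differed in few of these changes. The difference between the D2 change and the B6 change was called for 28 of 19134 genes, 0.146%, with 22 changes more positive in D2 and 6 less positive. Over probes, 1359 of 26645 had an unadjusted p below 0.05 in this test and 49 were called. The 3 named genes with the largest difference, *Ptgds*, *Dcn* and *Slc6a13*, are expressed in meninges. *Ptgds* in B6 went from 7.02, 7.20 and 7.75 at P0 to 12.02, 10.44 and 12.70 at P3, and in D2 from 8.32, 7.19 and 7.26 to 9.60, 8.20 and 7.37, so that B6 changed by 4.40 and D2 by 0.80 (difference -3.59, SE 0.80, adjusted p = 0.0328). *Slc6a13* in B6 went from 6.64, 6.62 and 6.94 to 9.69, 9.67 and 9.74 and in D2 from 8.26, 9.18 and 8.24 to 10.05, 9.72 and 9.39, a difference of -1.81 (adjusted p = 3.88e-04). The D2 arrays at P0 already lay above the B6 arrays at P0 for this gene and for *Dcn*, whose difference was -2.22 (adjusted p = 0.036). At P3 the means were 9.70 in B6 and 9.72 in D2 for *Slc6a13* and 11.11 and 11.59 for *Dcn*. Without the second D2 array at P0 the differences were -3.79 for *Ptgds*, -1.50 for *Slc6a13* and -1.67 for *Dcn* (adjusted p = 0.0708, 0.00276 and 0.362). *Angptl4* rose by 1.83 in B6 and had 0.35 in D2 (difference -1.48, adjusted p = 0.00629), and without that array its adjusted p was 0.0771.

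Another pair of genes had opposite signs in the strains. *Ccl21a*, a chemokine of lymphatic vessels, read 7.63, 8.16 and 8.10 at P0 and 7.69, 7.46 and 7.63 at P3 in B6, and 8.02, 8.72 and 8.49 and 10.24, 9.70 and 9.34 in D2 (difference 1.72, adjusted p = 3.91e-04). *Hbb-b1*, an adult beta globin of red blood cells, read 13.26, 13.63 and 13.46 and 13.10, 12.97 and 12.43 in B6 and 12.89, 12.91 and 13.28 and 14.03, 13.96 and 13.71 in D2 (difference 1.49, adjusted p = 0.0152). Without the second D2 array at P0 the adjusted p was 0.0856 for *Hbb-b1* and 1.86e-04 for *Ccl21a*. Both belong to clusters of near-identical genes, the strains carry different haplotypes of the beta globin genes, and whether the probes bind the copies of both strains alike was not tested. Under the chip block the difference of *Ccl21a* was 1.85 (adjusted p = 0.00207), and the other 5 had adjusted p-values from 0.0719 to 0.243.

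**Figure D4:**
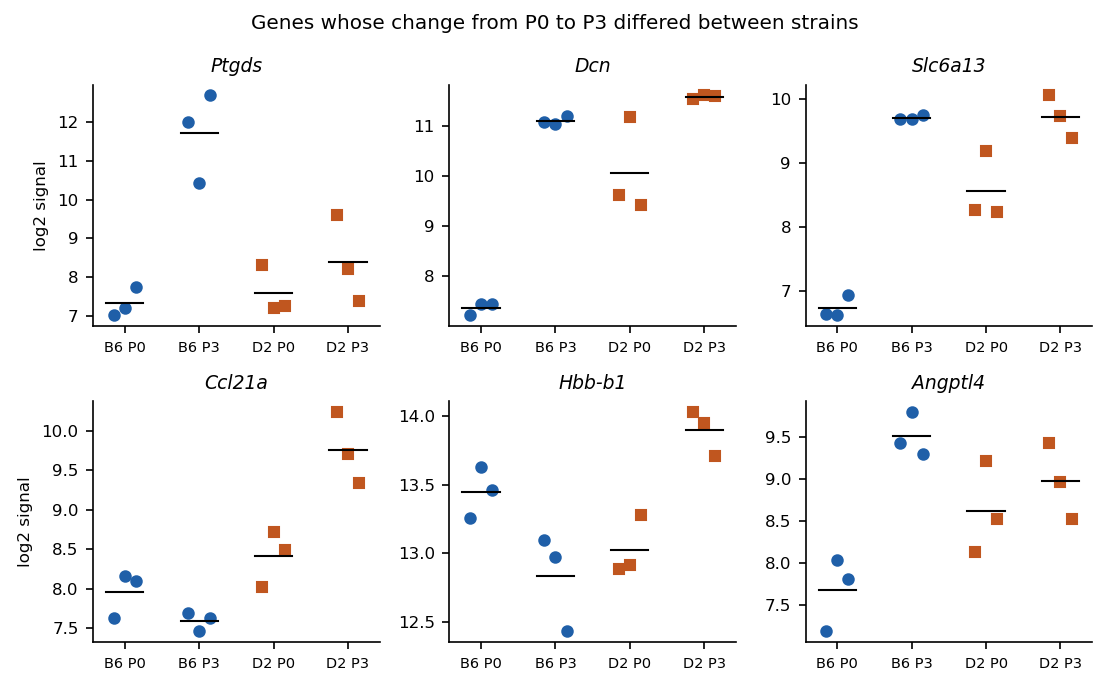
log2 signal on each array of the 6 genes with the largest called difference between the D2 and B6 changes from P0 to P3 (circles, B6; squares, D2; lines, means of n = 3). *Ptgds*, *Dcn*, *Slc6a13* and *Angptl4* changed more in B6, and *Ccl21a* and *Hbb-b1* are lower at P3 than at P0 in the B6 means and higher in the D2 means.

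The change over the first 3 days was set against that over the next 3, from P3 to P6, in the same fit. The difference between the 2 changes was called for 7.12% of genes in the positive direction (a more positive change in the first interval) and 8.39% in the negative. The intervals share the P3 arrays, and P0 and P6 arrays shared chips on which no P3 array lay, so values within chips are given as well. All of the 8 genes with the largest change that were called in both tests rose over the first interval and had a smaller or a negative value over the next. The rule they were named by, a large first change and a called difference, favours that pattern. *Ttr* had -1.30 from P3 to P6 (adjusted p = 0.0991), a difference of 5.12 (adjusted p = 1.81e-04). *Acta2* read 8.63, 8.19 and 7.88 in B6 and 8.61, 8.37 and 8.76 in D2 at P6, -0.32 from its P3 level (difference 2.43, adjusted p = 9.29e-10). On the chip that held B6 arrays of both P0 and P6 its P6 value was 2.08 above that at P0, on the D2 chip 1.56, and on the chip with D2 arrays of P3 and P6 the P6 value differed from P3 by -0.47. *Slc38a5* changed by -0.46 from P3 to P6, *Slc6a13* by -0.16 and *Dcn* by -0.11, with differences between the intervals of 2.30, 2.22 and 2.74. *Cldn11*, *Spp1* and *Gjb6* had positive values again, 0.55, 0.42 and 0.40, with differences of 2.13, 1.39 and 1.38 (adjusted p = 0.00378, 1.87e-04 and 8.11e-04). Under the chip block the differences of *Ttr*, *Acta2*, *Slc38a5*, *Slc6a13* and *Dcn* kept adjusted p-values of 0.0185, 0.00552, 0.0052, 0.0296 and 0.0469, and those of *Cldn11*, *Spp1* and *Gjb6* were 0.289, 0.15 and 0.317.

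By list, the meningeal genes had 15 of 26 members called in the positive direction and a median of -0.045 from P3 to P6, and the endothelial and pericyte genes 12 of 29 and -0.037. Microglia and macrophage genes had 10 of 27 and 0.018. Within chips, the medians from P0 to P6 were 0.80 in B6 and 0.32 in D2 for the meningeal list and 0.70 and 0.43 for the microglial list, so the levels of P6 also stood above those of P0 there. Under the chip block 5, 5 and 0 members of the 3 lists were called. The myelin list had a median of 0.28 over the first interval and 0.40 over the second, and 6 of 24 members were called in the negative direction against 2 in the positive. Under the series block 2 and 1 were called in these directions, and under the chip block 2 and 0. *Mbp* had 2.07 and then 2.35, *Gfap* 1.68 and then 2.22, and their differences between intervals missed the threshold (adjusted p = 0.808 and 0.405). *Ccnd1* had 0.54 and then -0.53, a difference of 1.07 (adjusted p = 4.57e-04), and *Tbr1* -0.48 and then 0.056 (-0.54, adjusted p = 0.016). Neither difference was called under the chip block (adjusted p = 0.156 and 0.598), and that of *Tbr1* was not under the series block either (0.0585).

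**Figure D5:**
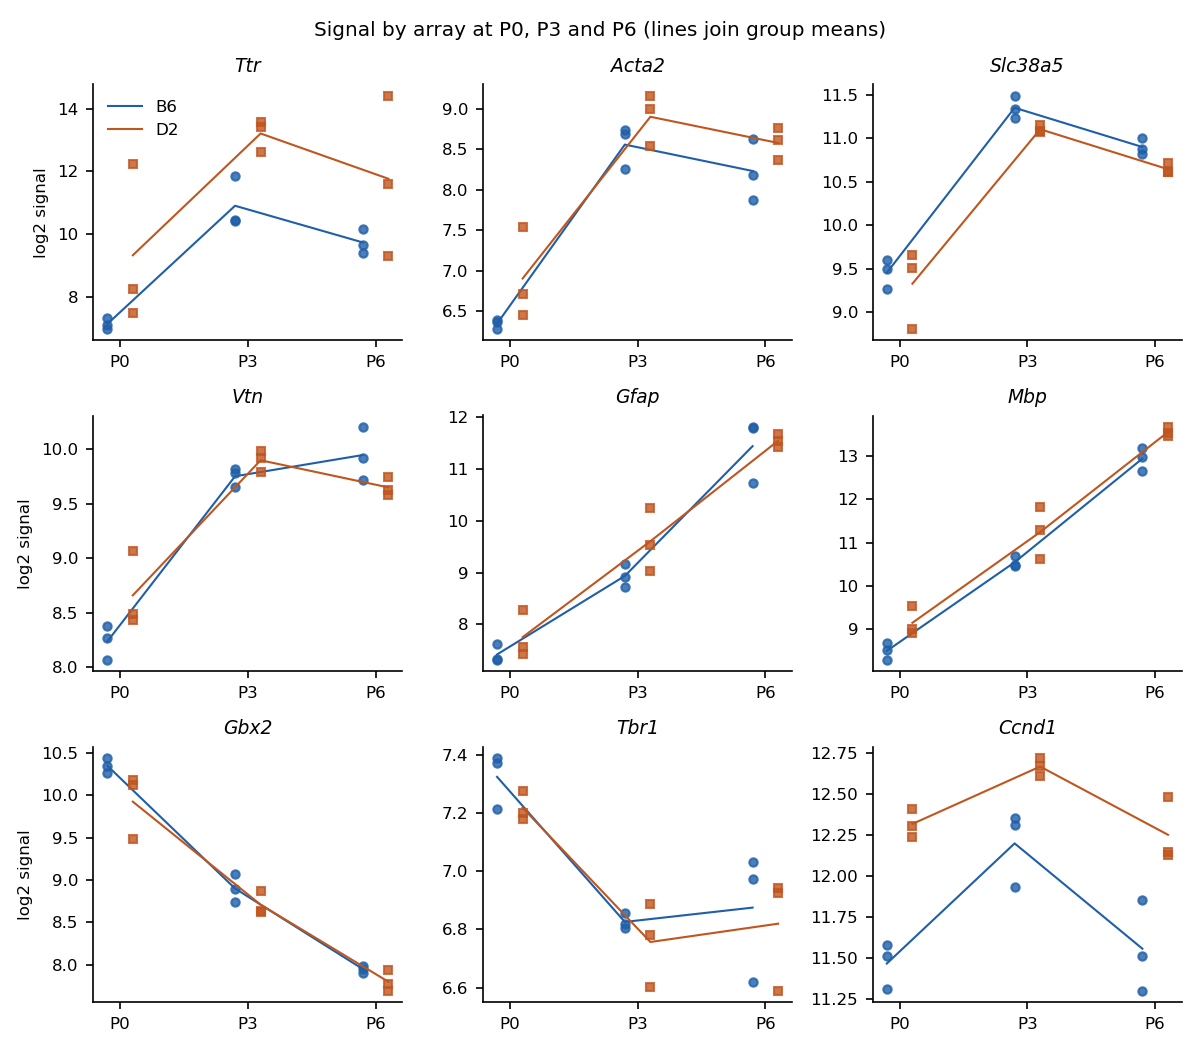
log2 signal of 9 genes on each array at P0, P3 and P6 (circles, B6; squares, D2; lines join the means of n = 3). *Ttr*, *Acta2*, *Slc38a5*, *Vtn* and *Ccnd1* rise to P3 and do not rise further in the mean of both strains, *Gfap* and *Mbp* rise over both intervals, *Gbx2* falls over both, and *Tbr1* falls over the first.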

How the data were processed

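Total RNA of whole cerebellum was measured on Illumina bead arrays. The authors deposited 1 table of linear signal intensity per strain, per the file headers. Their earlier processing and the genome build remained not given in the sources used here. Within each table array medians lie close together (82.9 to 85.7 in B6 and 90.0 to 92.5 in D2 over the 12 arrays), so earlier scaling is likely and depth cannot be read from them. The deposited value table of the series holds scores with the same mean and SD on every array, and it served as an alternative. All 66 columns were matched to samples by their labels, and 0 columns were left unused.

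From the intensities the following was computed in R 4.3.3. Both tables were quantile-normalised jointly, values under 1 were set to 1, and log2 was taken. Of 46632 probes, 26645 were kept: those brighter than the array median on all arrays of 1 or more groups with at least 2 arrays. limma 3.58.1 fitted 1 mean per strain and age over all 66 arrays (43 residual degrees of freedom), with Benjamini-Hochberg adjustment over the 26645 probes, and the comparison was P3 minus P0 as the equal-weight mean of the strains. Contrasts within each strain, between the strains (D2 change minus B6 change) and between intervals came from the same fit. Each gene was represented by its detected probe with the highest mean, with no level compared between genes. Names in the files were updated through RefSeq, where 26307 probes matched a symbol and 7973 an older symbol, while 12352 kept the file's name. The fit was tested on simulated data with independent noise on each array and no chip effect. That test therefore does not bear on the confounding of age with chip.

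Genes named are the 12 largest rises and falls with no overlap between ages in either strain, up to 4 called members per list, members that the SHH, granule cell and Purkinje cell accounts need, and the genes with the largest differences between strains (6) and intervals (8). Members and gene lists were chosen with earlier results of these data known. Genes without a gene symbol were passed over, and a few named by the rule are not reported here. Promoters came from the RefSeq table, in which 12 of the 13 called cell cycle genes and 4 of the 7 called SHH targets matched. Alternatives covered normalisation, filters, samples in the fit, array weights, blocks for chip, array series and replicate number, and leaving out arrays.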

Additional observations from a re-analysis of the deposited data

Results flagged for a closer look

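The following results stood out because the same contrast differed between strains or between intervals by a limma test of the difference, with adjustment over all probes. None was weighed for a cause. Groups of 3 arrays were too small for a test of single arrays.

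Between the strains, the change from P0 to P3 in D2 minus that in B6 was -3.59 for *Ptgds*, -2.22 for *Dcn*, -1.81 for *Slc6a13* and -1.48 for *Angptl4*, all with the larger rise in B6. It was 1.72 for *Ccl21a* and 1.49 for *Hbb-b1*, whose means at P3 lay below those at P0 in B6 and above them in D2. Of these 6, *Ccl21a* was called under the chip block, and *Slc6a13* and *Ccl21a* kept their call without D2 P0 replicate 2.

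Between the intervals, the change from P0 to P3 exceeded that from P3 to P6 by 5.12 for *Ttr*, 2.74 for *Dcn*, 2.43 for *Acta2*, 2.30 for *Slc38a5*, 2.22 for *Slc6a13*, 2.13 for *Cldn11*, 1.39 for *Spp1* and 1.38 for *Gjb6*. The first 5 of these were called under the chip block, and *Cldn11*, *Spp1* and *Gjb6* were not.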

How the results depend on the processing

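Age and chip are nearly confounded, and the number of arrays limits the precision. All counts are of probes called by limma, and the values with no block were 4534 for the mean of both strains, 2076 in B6, 1795 in D2, 49 for the strain difference and 3793 for the interval difference. With the chip as a fixed block these counts were 1315, 1311, 315, 28 and 454, and with the chip as a random block (consensus correlation 0.483) 1743 for the mean, 641 in D2, 134 for the strain difference and 518 for the interval. Under the series block the strain difference had 132, and within the shared series alone 3. A filter at the 75th percentile left 2135, 1302 and 477 for the mean, B6 and D2 and 1648 for the interval. Fitting only the 12 arrays gave 1221 in B6 and 1136 in D2, and cyclic loess on them 1210 and 1056. Both gave 0 for the strain difference (1290 and 1320 at an unadjusted p below 0.05), as did subtracting the lowest 1% of each array (0, with 1274). D2 in a fit of its own had 951. Array weights, estimated gene by gene and lowest on the third P0 arrays, raised the counts to 12528, 11166, 5742, 1483 and 13750. Without both P0 replicate 3 arrays, an alternative chosen after seeing the data, the mean had 7065, B6 3463 and the interval 6657. Leaving out each array in turn gave 3435 to 5552 for the mean, 833 to 3160 in B6, 831 to 1955 in D2, 15 to 91 for the strain difference and 2252 to 5240 for the interval. The lowest of these came without D2 P0 replicate 1, B6 P0 replicate 2, D2 P0 replicate 2, D2 P0 replicate 2 and D2 P3 replicate 1. The highest came without B6 P0 replicate 3 for the mean and B6, D2 P0 replicate 3 for D2 and the interval, and D2 P0 replicate 1 for the strain difference.

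The replicate numbers do not pair the samples: deviations of same-numbered P0 and P3 arrays correlated between -0.76 and 0.25. With the number as a replicate block on the 12 arrays, 676 probes were called in B6, 299 in D2, 0 for the strain difference (1159 at an unadjusted p below 0.05) and 3394 for the mean. Of 134 genes, 4 reversed under the chip block: *Neurod1* (-0.092), *Rps14* (-0.052), *Sparc* (-0.0053) and *Txnip* (-0.25), and 52 more lost their call. *Etv1* had -0.12 over the median of its probes. No other setting reversed any of the 134. The cause of these shifts was not tested.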
